A study of Mus musculus with 3 samples.

Results

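Distal regions of open chromatin that were called in all 3 ATAC-seq libraries of mouse islets are described here as candidate islet enhancers. In ATAC-seq a transposase cuts accessible DNA and leaves adapters there for sequencing. A member was a peak of the wild type (WT) list on chromosomes 1 to 19 that overlapped, by at least 1 bp, a peak in the list made 1 week and a peak in the list made 5 weeks after inactivation of Taf4, and that touched no promoter window. The promoter window ran from 1000 bp before to 100 bp after any start of a protein-coding transcript. The members were thus chosen by measured values, the peak calls of the 3 libraries, and their being called in all of them is not a finding. Of 59626 WT peaks on these chromosomes 47116 were distal, and 25190 of them were members.

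The libraries came from dissociated cells of isolated islets of Langerhans of mice of the strain labelled C5LBl6, with 1 library for WT, 1 for Taf4 KO at 1 week and 1 for Taf4 KO at 5 weeks. Per the study's methods, Taf4 KO mice carried Ins1::Cre-ERT2 and Taf4 lox/lox and control mice carried the same Cre with Taf4 +/+, and adults of each genotype received tamoxifen for 3 days. Cre was driven from the Ins1 promoter and so targeted beta cells, and a peak list cannot tell a beta cell peak from that of another islet cell. No library was replicated and no p-value was computed. The intervals given are Wilson 95% intervals, which cover the counting of peaks or genes and not the difference between animals.

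Enhancers are stretches of DNA bound by transcription factors that raise transcription from promoters at a distance, and active ones are depleted of nucleosomes and therefore open to the transposase. In islets they are bound by factors of endocrine identity such as Foxa2, Pdx1, Nkx6-1, Neurod1, Mafa and Rfx6. Taf4 is a subunit of TFIID, the complex that recognises core promoters, and does not itself read enhancer sequences. Distal open regions also include insulators, bound by CTCF, and starts of transcripts that are absent from the annotation. The data do not tell enhancers from these.

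The sequences of 4 strong members near endocrine genes are given as examples. From each of 4 lists used below, of glucose sensing, beta cell receptor, alpha cell and delta cell genes, the gene was taken whose strongest member stood highest in the library where it stood lowest. The 300 bp around the midpoint of that member are printed 5′ to 3′ on the plus strand of mm9. Capitals mark matches to the motif words described further below. They lie near Kcnj11 (chr7:53378446-53378745), the pore of the ATP-sensitive potassium channel, Casr (chr16:36543084-36543383), the calcium-sensing receptor, Etv1 (chr12:39668468-39668767), an ETS factor listed for alpha cells, and Ghsr (chr3:27328761-27329060), the ghrelin receptor of delta cells.
Kcnj11: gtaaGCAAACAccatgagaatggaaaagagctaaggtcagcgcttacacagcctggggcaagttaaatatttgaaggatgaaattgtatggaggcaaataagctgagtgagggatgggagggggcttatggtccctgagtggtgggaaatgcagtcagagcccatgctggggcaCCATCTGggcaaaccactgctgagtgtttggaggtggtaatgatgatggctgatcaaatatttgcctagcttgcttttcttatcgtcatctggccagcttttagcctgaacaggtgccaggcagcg
Casr: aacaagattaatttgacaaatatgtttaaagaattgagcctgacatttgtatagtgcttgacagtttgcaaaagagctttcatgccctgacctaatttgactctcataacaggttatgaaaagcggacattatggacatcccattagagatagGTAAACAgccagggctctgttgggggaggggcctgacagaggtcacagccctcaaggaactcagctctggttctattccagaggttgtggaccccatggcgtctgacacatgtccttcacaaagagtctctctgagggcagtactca
Etv1: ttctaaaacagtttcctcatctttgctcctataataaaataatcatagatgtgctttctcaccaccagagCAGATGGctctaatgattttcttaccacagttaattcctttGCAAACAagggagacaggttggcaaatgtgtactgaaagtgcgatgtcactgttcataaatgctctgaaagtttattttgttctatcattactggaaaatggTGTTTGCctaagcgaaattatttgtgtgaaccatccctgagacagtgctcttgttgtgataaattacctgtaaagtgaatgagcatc
Ghsr: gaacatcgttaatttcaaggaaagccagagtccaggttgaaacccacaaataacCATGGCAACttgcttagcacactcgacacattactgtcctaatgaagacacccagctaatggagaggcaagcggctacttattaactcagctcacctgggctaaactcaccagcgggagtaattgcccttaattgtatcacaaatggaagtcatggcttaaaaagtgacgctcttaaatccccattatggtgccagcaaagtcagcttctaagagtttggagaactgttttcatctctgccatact
Of these 4 windows, 3 held a FOXA word, the sequence read by the forkhead factors Foxa1 and Foxa2, and 2 of these 3 also held the E-box word of Neurod1. The window near Ghsr held neither, but an RFX word, read by the Rfx family. Over all members FOXA words were in 26.3% of windows, the E-box word in 12.3% and RFX words in 2.01%. These 4 chosen windows thus do not stand for the members as a whole.

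At the targeted gene, Taf4 (Taf4a in the annotation), 1 member was found. It lay in an intron 27.4 kb downstream of the nearest start, at chr2:179682269-179683460 in the WT list. Its -log10 q, the significance the authors' caller gave to a peak within its own library, was 3.65 (WT), 12.8 (1 week) and 9.97 (5 weeks). Expressed as the percentile rank of the peak within its list, where 100 is the strongest, this was 49.3, 96.8 and 85.2. The region was thus called in both Taf4 KO libraries. A peak in an intron does not measure the deletion, and cells in which Cre was not active keep the gene, so that this checks nothing about the labels.

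The lists were of unequal depth and length. On chromosomes 1 to 19 the 1 week list held 138129 peaks and the 5 week list 150230. The 1st percentile of the local read depth recovered from the peaks, an estimate of background, was 1.77 and 2.57 times that of WT. The longer lists held weaker peaks, with a median -log10 q over the whole list of 2.11 at 1 week and 2.37 at 5 weeks against 3.71 in WT. A region of given strength therefore stands at a higher percentile in either Taf4 KO list. For this reason the order of members in each library is described, and a rise in percentile from WT to Taf4 KO is not read as a gain in accessibility.

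The majority of distal WT peaks were members. The share was 53.5% (53.0 to 53.9), and 21.5% were touched only by a 5 week peak, 1.77% only by a 1 week peak and 23.3% by neither. Strength in WT went along with membership, as it must for a rule that asks for 3 calls. With the WT list cut into 10 groups of equal size, 15.9% of distal peaks in the weakest group were members, in group 5 57.2%, and in the strongest group 97.7% (96.9 to 98.3). Of the distal peaks in that strongest group 2.11% were missing at 1 week alone and 0.167% in both lists. With lists cut to the same number of peaks, 21220 members were left, or 45.0% of distal WT peaks.

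The share of members also ran with base composition. For this, distal WT peaks were ordered by their surrounding GC content over 1 Mb and divided into 5 groups of equal size. From the least to the most GC-rich group the share of members fell from 71.7% (70.8 to 72.6) to 36.5% (35.6 to 37.5), in order over all 5 groups. Peaks absent from the 1 week list made up 23.9% of the first group and 63.2% of the last, whereas those absent from the 5 week list made up 20.01% and 28.7%. The trend was thus much steeper at 1 week. By chromosome, the share of members lay between 37.6% on the gene-dense chromosome 11 and 65.4% on chromosome 3. The library at 1 week is the only one of its kind, so its base composition and the time after Taf4 loss cannot be told apart.

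**Figure D1:**
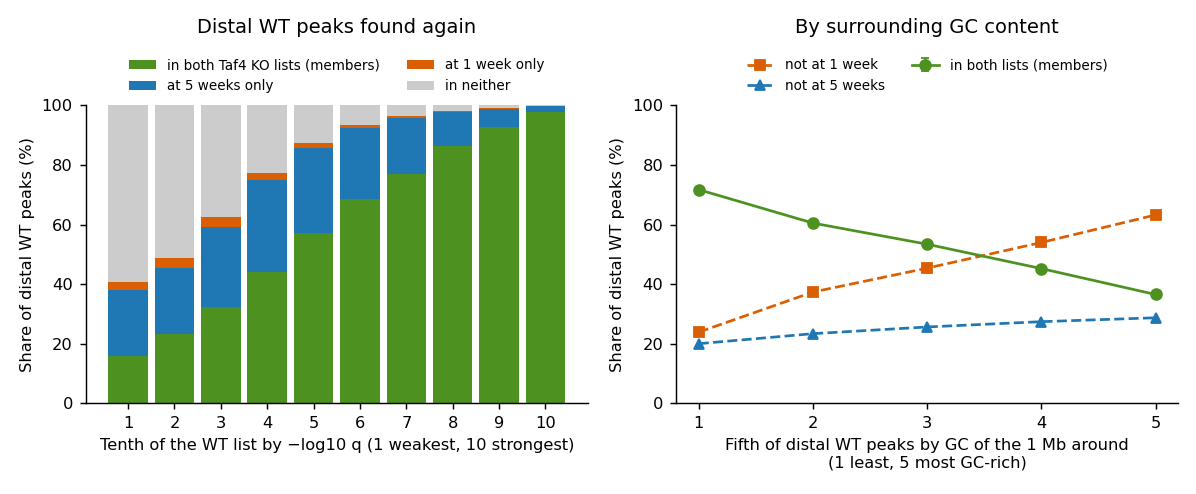
Distal WT peaks by what was found in the Taf4 KO lists, as a share of the distal WT peaks in each of 10 equal groups of the WT list by -log10 q (left, stacked bars) and in 5 groups of equal size ordered by surrounding GC content over 1 Mb (right, with Wilson 95% intervals on the member share). Members rise from 15.9% to 97.7% with strength and fall from 71.7% to 36.5% with GC content, while the share missing at 1 week rises from 23.9% to 63.2%.

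Members lay mostly far from promoters, in introns and between genes. By the midpoint, 48.4% (47.8 to 49.0) were in introns of protein-coding genes, 47.2% between genes and 4.37% in exons. Distal WT peaks seen in neither Taf4 KO list had 7.72% (7.24 to 8.24) in exons, an interval above that of members, and those seen only at 1 week 2.40% (1.56 to 3.67), an interval below it. The median distance of a member from the nearest protein-coding start was 33.5 kb, with quartiles at 12.55 and 86.5 kb. For peaks of neither list it was 24.8 kb and for those seen only at 5 weeks 21.4 kb, whereas the 835 seen only at 1 week lay farther away than members, at 47.8 kb. At more than 100 kb were 19.7% of members up to 500 kb and 2.01% beyond, against 14.1% and 0.926% of other distal WT peaks. Of members, 3.93% touched a window of promoter size around a transcript start outside the protein-coding set, against 3.14% of other distal WT peaks. For such windows of long intergenic non-coding RNAs the shares were 0.750% (0.651 to 0.865) of members and 0.269% of other distal peaks.

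Members were also wider than other distal WT peaks. The rule favours this, since a wide peak touches peaks of other lists more readily, so the difference is a description. The median member was 520 bp wide in WT, against 305 bp for distal WT peaks of neither list and 382 bp for those seen only at 5 weeks. The overlapping peaks measured 532 bp at 1 week and 697 bp at 5 weeks. At 5 weeks 72.5% of members were wider than in WT, at 1 week 49.9%. Here too the GC groups ran in opposite directions. From the least to the most GC-rich group the median width of members rose from 435 to 632.5 bp in WT and from 642 to 788.5 bp at 5 weeks, while at 1 week it fell from 653 to 423 bp.

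The order of members by strength was partly kept between libraries. Across the 25190 members Spearman's rho of the -log10 q was 0.51 between WT and 1 week, 0.67 between WT and 5 weeks, and 0.67 between 1 and 5 weeks. These are descriptions across regions of single libraries, and they share the effects of width and base composition. Of the 2519 members in the strongest 10% in WT, 1023 (40.6%) were in the strongest 10% of members at 1 week and 1358 (53.9%) at 5 weeks, and 806 (32%) in all 3. Of the same strongest members 12.47% fell below the median member at 1 week and 3.53% at 5 weeks. Base composition moved with these shifts. Placing members on a scale of 0 to 100 within each library, the median of those in the least GC-rich surroundings was 44.9 (WT), 58.8 (1 week) and 43.2 (5 weeks), and that in the most GC-rich surroundings 59.6, 41.6 and 60.9. WT and 5 weeks thus ordered the GC groups alike and 1 week the other way round. What part GC content has in the weaker likeness of WT and 1 week was not tested.

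Each member was given to the protein-coding gene with the nearest start. Of 21410 such genes, 8997, or 42%, were nearest to at least 1 member, 15.1% to at least 3 and 6.95% to at least 5. These shares are the background for the gene lists below. Since genes in deserts collect more distant regions, the number of members was also divided by the stretch of chromosome that lies nearer to a gene than to any other, and over all genes this came to 10.5 members per Mb. In each of 4 lists of beta cell genes the share of genes with a member was above that over all genes, and of the 63 genes 59 had a member, with 330 members in all. These genes also had many distal WT peaks, whether members or not. Of the distal WT peaks near them, members were 61.8% for transcription factors, 59.9% for insulin and granules, 53.1% for glucose sensing and 59.2% for receptors, against 53.5% over all genes. These shares lay closer to the overall share than the densities below lay to the overall density.

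**Figure D2:**
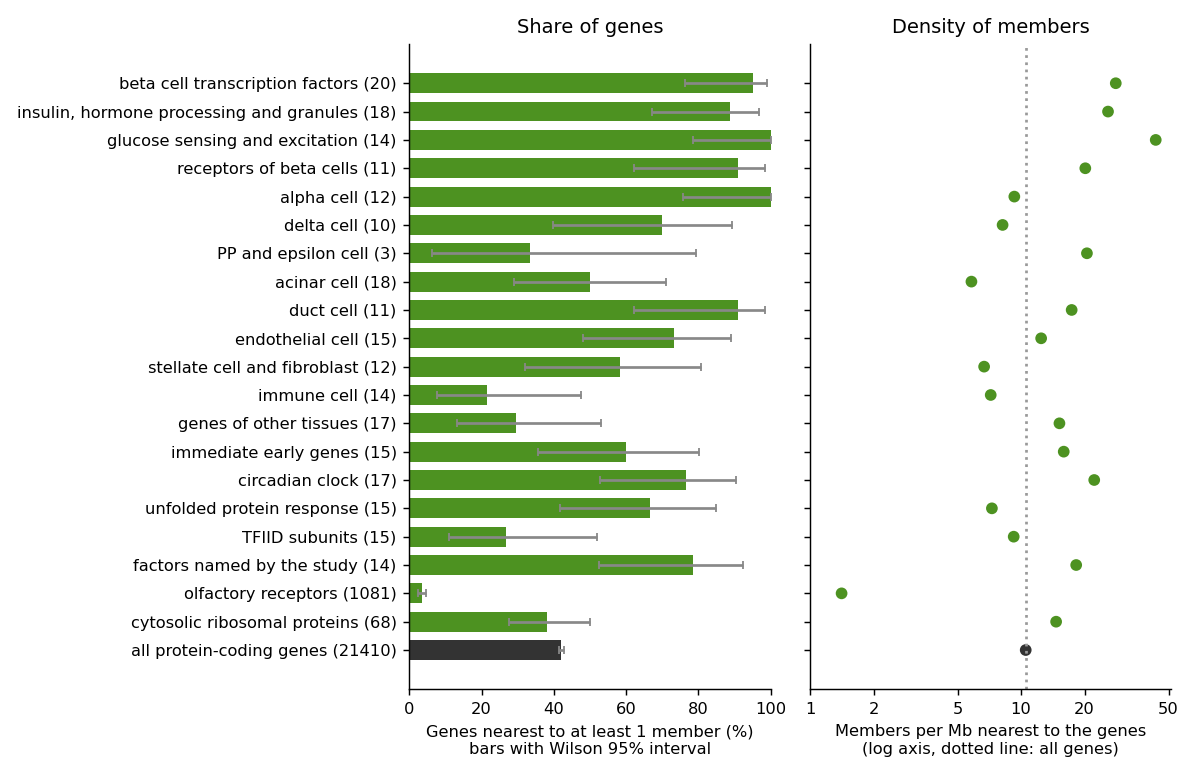
Genes nearest to at least 1 member as a share of each list, with Wilson 95% intervals and the number of matched genes in brackets (left), and members per Mb of the stretch nearest to the listed genes on a log axis (right). The 4 lists of beta cell genes lie at 88.9% to 100% and 20.2 to 43.5 members per Mb, against 42% and 10.5 for all genes, and olfactory receptors lie at 3.42% and 1.41.

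Transcription factors of beta cells had members at 19 of 20 genes, 14 of them with at least 3 and 9 with at least 5. Their 113 members lay at 28.1 per Mb, 2.67 times the density over all genes. Foxa2, a forkhead factor that opens chromatin in endoderm, had the most with 18. Next came Nkx6-1, which maintains beta cell identity, with 15 and Pax6, needed for all endocrine cells, with 14. Insm1 and St18, zinc finger factors of endocrine cells, had 9 each. Hnf4a was the gene with none, although it had 4 distal WT peaks. The strongest member of Nkx6-1 lay 85.5 kb downstream of the start. It reached a -log10 q of 26.4 (WT), 20.03 (1 week) and 33.4 (5 weeks), at percentiles 98.3, 99.3 and 99.5. That of Foxa2, 77.2 kb downstream at chr2:147794135-147794896, had 19.7, 17.4 and 29.6, at percentiles 94.9, 98.8 and 99.1. Both were thus near the top of each list. For Pax6 the strongest member, chr2:105578869-105579351, lay 49.5 kb downstream of a start within an intron of the neighbouring gene Elp4. Its -log10 q was 18.4, 19.2 and 27.7.

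Pdx1, the factor that activates the insulin genes, had 2 members. The stronger, chr5:148078910-148079844, had its midpoint 2.16 kb upstream of the start, with a -log10 q of 14.1 (WT), 13.7 (1 week) and 9.77 (5 weeks). Its percentiles were 88.7, 97.3 and 84.9. Among the leading members of the 19 genes, those of Pdx1 and Foxa1 stood lower at 5 weeks than in WT. Over all members the rank fell for 6.27% at 5 weeks, and a difference from this share was not tested. Leading members were also chosen by their WT value. Nkx2-2, another homeodomain factor of endocrine cells, had 5 members, and its strongest had 13.1, 23.3 and 27.4. Mafa, an activator of insulin transcription in mature beta cells, had 4, the strongest inside an intron of Zc3h3 with 8.65, 4.97 and 14.8. Weak members led at other genes. At Neurod1, a bHLH factor, the strongest of 3 had 5.66, 2.83 and 4.20. Rfx6, which directs islet development, had 2, the stronger at 2.84, 3.96 and 2.83, and Foxa1 had 1 at 1.57, 2.58 and 1.28, over an exon of the gene.

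Genes of insulin, hormone processing and granules had members at 16 of 18, with 106 members at 25.8 per Mb, 2.46 times the overall density. Vgf, a granule protein, and Ins2, one of the mouse insulin genes, had none, although Ins2 had 2 distal WT peaks. Ins1 had 3, the strongest 11.8 kb away with a -log10 q of 16.5 (WT), 3.54 (1 week) and 16.6 (5 weeks). At percentiles of 91.9, 74.9 and 93.6 it stood lowest at 1 week. The surrounding 1 Mb had a GC content of 38.7%, in the least GC-rich group. Ptprn2, a membrane protein of dense-core granules, had 27 members, among the highest numbers of any gene, and Pcsk2, the second prohormone convertase, had 16. The strongest member near Pcsk1, a protease that processes proinsulin, was among the strongest of all, with 32.7 (WT), 41.9 (1 week) and 50.8 (5 weeks), at percentiles 99.5, 99.99 and 99.99. Slc30a8, the zinc transporter of insulin granules, had 8, the strongest in an intron with 24.3, 17.4 and 21.7. Near Iapp, which encodes amylin, the strongest of 4 had 33.0, 11.04 and 20.4. Chgb, a granin, had 1 weak member at 2.56, 2.29 and 1.98.

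Glucose sensing and excitation was the list with the densest members, and its distal WT peaks were as often members as those of all genes. All 14 genes had at least 1, and the 69 members lay at 43.5 per Mb, 4.13 times the density over all genes. Slc2a2, the glucose transporter of mouse beta cells, had 14 members of 16 distal WT peaks. The strongest, chr3:28580443-28581566, reached a -log10 q of 17.6 (WT), 8.28 (1 week) and 24.9 (5 weeks). Cacna1c, a subunit of the voltage-gated calcium channel, had 14 of 27, led by 1 with 14.4, 17.9 and 28.5. Kcnj11 had 8, the strongest in an intron of its neighbour Abcc8, the other subunit of the potassium channel, which itself had 4. In the Kcnj11 region printed above the values were 26.1, 18.5 and 29.4. G6pc2, a glucose-6-phosphatase subunit of islets, had 3, led by 1 in an intron of Abcb11 with 13.7, 7.54 and 28.3. Pfkfb2 had 1, at 7.35, 17.9 and 32.6. Like most members it stood higher in the Taf4 KO lists, at percentiles 98.9 and 99.4 against 72.1.

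Receptors of beta cells had members at 10 of 11 genes, with 42 members at 20.2 per Mb. Adra2a, the adrenergic receptor that inhibits insulin release, had 12 and Galr1, a galanin receptor, 8. Prlr, the prolactin receptor, had 7. Glp1r, the receptor of the incretin GLP-1, had 3, the strongest with a -log10 q of 14.6 (WT), 5.55 (1 week) and 19.4 (5 weeks). Casr had 5, led by the printed region with 24.4, 16.5 and 24.2. At Ffar1, the fatty acid receptor, the percentile of the single member rose, as for most members, from 27.7 in WT to 80.7 and 77.2. Mc5r, a melanocortin receptor, had none and also no distal WT peak.

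**Figure D3:**
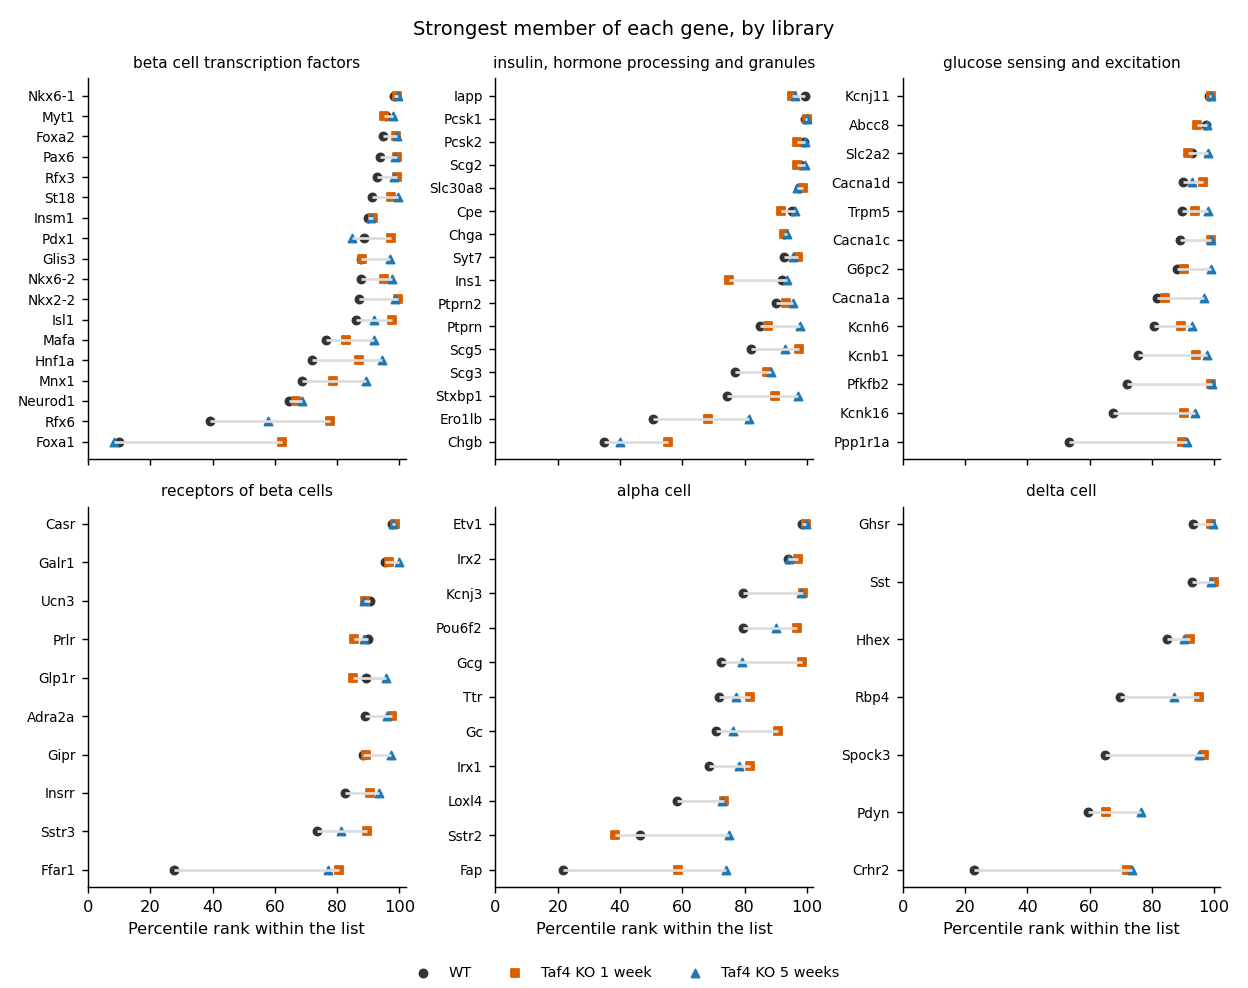
Percentile rank within the list (100 is the strongest) of the strongest member by WT -log10 q of listed genes, in the WT, 1 week and 5 week libraries, 1 point per library. The leading members of Nkx6-1, Pcsk1, Kcnj11, Casr and Etv1 stand at 97.6 or above in WT, and those of Foxa1, Fap and Crhr2 at 9.88, 21.7 and 22.8.

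At alpha cell genes every one of 12 had a member but their density was not raised. The 44 members lay at 9.29 per Mb, 0.883 times the overall density, in long stretches between genes. Gcg, encoding glucagon, had 1 member, its only distal WT peak, at chr2:62323025-62323396 and 1.504 kb from the start. Its -log10 q was 7.495 (WT), 16.5 (1 week) and 7.14 (5 weeks), so that the 1 week library stood above both others, at the 98.5 percentile against 72.6 and 79.1. Irx1 and Irx2, homeodomain factors of alpha cells, had 7 each, the strongest near Irx2 with 18.5, 13.4 and 17.3. Etv1 had 8, led by the printed region with 26.6, 22.8 and 39.6. As a list, alpha cell members had a median percentile of 48.6 (WT), 89.2 (1 week) and 80.9 (5 weeks), where all members had 58.5, 84.4 and 84.2. The median rise from WT to 1 week was 36.8 points, against 21.5 for all members. Their surroundings had a median GC content of 41.2%, which is in the least GC-rich group, where members as a whole stood higher at 1 week. The part of base composition in this shift was not tested. In bulk islets a change in the number of cells of a type cannot be told apart from a change of openness in each cell.

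Delta cell genes had members at 7 of 10, with 15 members at 8.17 per Mb. Sst, encoding somatostatin, had 3, the strongest, chr16:23842448-23843386, 48.0 kb away with a -log10 q of 17.4 (WT), 28.8 (1 week) and 29.3 (5 weeks). Its percentiles were 99.9 and 99.0 in the Taf4 KO libraries against 92.8 in WT. Such a rise was common, since over all members the percentile fell for only 12.6% at 1 week and 6.27% at 5 weeks. Ghsr had 5, led by the printed region with 17.8, 18.3 and 33.2. Hhex, the factor that specifies delta cells, had 2, the stronger with 12.01, 8.70 and 13.3. Lepr, the leptin receptor, Cckbr, a gastrin receptor, and Efnb3, an ephrin, had none. In the list of PP and epsilon cells 1 of 3 genes had a member. Near Pyy, encoding peptide YY, it had 30.2, 15.8 and 40.5, and Ppy, the pancreatic polypeptide, and Ghrl, ghrelin, had none. With promoter windows at every annotated start the member near Pyy no longer counted as distal.

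Genes of the other cells that islet preparations can hold fell on either side of the overall density. Acinar cell genes, which encode digestive enzymes and their regulators, had them at 9 of 18, at 0.553 times the overall density, and Cpb1, Cela1, Prss2 and Cel had neither a member nor a distal WT peak. Among immune cell genes 3 of 14 had a member, Laptm5 with 3, Csf1r with 2 and Ptprc with 1. Genes of stellate cells and fibroblasts had members at 7 of 12, with Col1a2, a collagen, at 5, and endothelial genes at 11 of 15 and 1.18 times the overall density, with Cdh5 at 10 and Kdr at 5. Duct cell genes had them at 10 of 11 and 1.65 times the density, above the alpha and delta cell lists on this scale. Of these Sox9, a progenitor factor, had 8 and Epcam, which endocrine cells also express, had 5. From which cells these members came cannot be told apart in bulk islets. Under other settings of the rule the density ran from 0.742 to 1.38 times the overall one for delta, from 0.675 to 1.12 for immune and from 0.936 to 1.36 for endothelial cell genes, so that for these lists not even the side of the overall density was stable. Olfactory receptor genes, silent in islets, had members at 37 of 1081, or 3.42% (2.49 to 4.68), at 0.134 times the overall density.

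Among the remaining lists, clock genes had members at 13 of 17 and at 2.11 times the overall density, above the 1.92 times of the beta cell receptors, with 26 at Rora, a nuclear receptor of the clock, and 5 at Arntl. The immediate early list had 9 of 15, led by Jun with 11 and Fos with 7, both subunits of AP-1. Genes of the unfolded protein response had 10 of 15 at a density 0.691 times that over all genes. No gene of that list had more than the 3 of Pdia6, a disulphide isomerase. TFIID subunits had 4 of 15, among them Taf3 with 3 and Taf2, Taf4a and Taf8 with 1 each, and Taf4b, the paralogue of Taf4, had none. Factors that the study named had 11 of 14, led by Myc with 20 and Foxp1 with 18. The study chose these in part from these libraries, so their count is not independent evidence, and Nkx6-1 and Bhlhe41 are among those that stand in a further list as well. Cytosolic ribosomal proteins had 26 of 68 (38.2%), near the background of 42%, at 1.39 times the overall density, and 5 of 17 genes of other tissues had a member, with 11 of the 15 members at Mbp.

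The most members nearest to 1 gene were 31. Arid1b, a subunit of the SWI/SNF chromatin remodeller, and Zmiz1, a transcriptional co-activator, reached this number. Celf4, an RNA-binding protein, and Zfp608, a zinc finger protein, had 29, and Ptprn2 followed with 27. Auts2, Maml3, a Notch co-activator, and Rora had 26 each, Arhgap26, Nav2, Tns3 and Zfp516 had 24, and Agap1, C130026I21Rik and Lpp had 23. Per Mb their densities ranged from 11.5 at Celf4, close to that over all genes, to 139.5 at C130026I21Rik. The strongest member of Zfp608 lay 387 kb upstream with a -log10 q of 40.8 (WT), 19.6 (1 week) and 29.9 (5 weeks).

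Most members stood alone. When members at most 10000 bp apart were joined, 16199 (64.3%) had no partner, and 107 clusters held at least 5 members each, with 647 members in all. Such a cluster was near 8 of the 63 genes of the beta cell lists (12.7%), against 0.593% of all protein-coding genes. The largest of these were at Foxa2, with 8 members in 42.8 kb, and at Kcnj11, with 8 in 35.5 kb. At Cpe, the carboxypeptidase that finishes insulin processing, there were 6, and at Insm1, Slc2a2, Casr, Ptprn2 and Cacna1a 5 each. The distance for joining was chosen after the members had been seen, and the numbers depend on it. Joined within 5000 bp, 11 clusters of this size were left and none was near a beta cell gene, and within 20000 bp there were 449, near 23.8% of the beta cell genes and 2.79% of all genes.

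The largest clusters of all were not near genes of the beta cell lists. At Sfi1 18 members lay in 61.7 kb, and at Gm10354, Gm17019 and Speer4e on chromosome 5 there were 14, and at Gm15319 on chromosome 8 there were 13. In the latter pair a median of 73.6% and 69.0% of a member's 32-base words occurred again on chromosomes 1 to 19, against 0% for the median of the 330 members at beta cell genes. At Sfi1 the median was 4.71%. Reads were kept only where they had a unique place, so peaks in repeated sequence rest on the bases that differ, and their strength is uncertain.

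Repeated sequence was also found among the strongest members. The 10 members with the highest -log10 q in WT were the same 10 that stood highest in the library where each stood lowest, each at the 99.9 percentile or above in every list. The first lay between genes near Gm5614, at chr9:35112724-35113262, with a -log10 q of 101.3 (WT), 130.6 (1 week) and 137.2 (5 weeks). Second was a region 284 kb from Pxmp3 with 90.5, 77.0 and 103.5, and the third lay in an exon of Lars2 with 75.9, 56.4 and 75.9. The remaining 7 were nearest to Txndc11, Filip1l, Ly6c2, 1700012B15Rik, Chl1, Gm15319 and Nt5c3. In 9 of the 10 between 37.9% and 68.3% of the 32-base words occurred again in the genome, and in that of Nt5c3 none did. Repeated words were not counted over all members, so whether the strongest differ from the rest in this was not tested. None of the 25190 members held a run of 36 bases identical to the mitochondrial genome.

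Between WT and 1 week the rank of most members rose with the longer list, and it fell for 12.6%. The largest fall was in an intron of Chd5, a neural chromatin remodeller. There the -log10 q was 16.1 (WT), 1.30 (1 week) and 7.56 (5 weeks), at percentiles 91.4, 7.76 and 80.2. Falls of like size were found near Ntng1, Tnfrsf9, C1qa and Mdfi. With the exception of Ntng1, all stood in surroundings of 48.3% to 51.3% GC and at or above the 80.2 percentile at 5 weeks. The largest rises were near Zmat4, Slc35b4, Zap70, Wdr67 and 1700019D03Rik. At Zmat4 the -log10 q was 1.27 (WT), 11.6 (1 week) and 16.1 (5 weeks), and the WT peak was the narrowest a list could hold, with 200 bp.

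Between WT and 5 weeks the rank fell for 6.27% of members. The members with the largest falls, near Trim45, Prdx6b, Hrh4, Sox5 and Sema6d, had 1.31 to 1.54 at 5 weeks, after 6.95 to 15.4 in WT. Of these Hrh4 and Sox5 also stood below the 10 percentile at 1 week, while Prdx6b and Sema6d stood at 80.4 and 79.1. Rises were led by Slc35b4 and Zmat4 again, followed by Zfp366, Gsg1l and Cdcp2. Since both comparisons share the WT library, a region with a high or a low WT value moves in both, and these members were named for their difference.

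Motif words were counted in the 300 bp around the midpoint of each member, on both strands. The same was done for windows 3 kb to either side that touched no peak of any list, for the other distal WT peaks, for promoter peaks shared by all 3 lists and for all 7978600 windows of that length on chromosomes 1 to 19. Their median GC content was 49.0% in members, 44.3% at 3 kb, 50.7% in other distal WT peaks and 65.7% in promoter peaks. Because the sets differ in base composition, each word was also searched with its letters in reverse order. This keeps its bases but can change its number of CpG. Reversal adds a CpG to the MAF and CTCF words and to some of the FOXA, RFX and CEBP-ATF words. For these the reversed words are a limited control. The SP-KLF word (GGGGCGGGG) reads the same in reverse, so for it there is no such control. The words of HNF1 and the homeodomain, of the E-box and CTCF, and of MAF and AP-1 can overlap one another.

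FOXA words (TGTTTAC or TGTTTGC or TATTTAC) were the most common. They were found in 26.3% (25.8 to 26.9) of members, 14.2% of windows 3 kb away, 16.1% of other distal WT peaks, 5.63% of shared promoter peaks and 15.7% of all windows. Reversed, the same words were in 13.1% of members and 14.2% of windows 3 kb away, so that against these flanks the excess was seen only for the FOXA order of letters. Other distal WT peaks held reversed words in 10.4%, so that against them the reversed words were higher in members as well, though by less. Around the midpoint, matches rose from 0.550 per kb at 1000 to 1500 bp to 1.14 per kb within 100 bp. In the strongest 10% of members by WT -log10 q 29.7% (27.9 to 31.5) held a match and in the weakest 10% 20.8% (19.3 to 22.4). Such a rise was not particular to FOXA. AP-1 words, described below, were in 17.6% of the strongest and 9.93% of the weakest 10%. Words of SPI1, GATA and TEAD were not more frequent in the strongest 10%.

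Other words of endocrine factors were raised over the flanks too, but less over other distal WT peaks. The E-box word of Neurod1 (CAGATGG) was in 12.3% (11.9 to 12.7) of members against 6.56% of windows 3 kb away and 5.96% of all windows. For the MAF word (TGCTGAC) the shares were 8.13% (7.80 to 8.47), 4.37% and 4.10%. RFX words (GTTGCCATG, GTTACCATG or GTTGCTATG) were rarer, in 2.01% (1.85 to 2.19) of members, 0.970% of windows 3 kb away and 0.819% of all windows, and reversed in 0.0834% of members. The excess over the flanks was thus close to 2-fold for each. In other distal WT peaks, however, the shares were 10.6% for the E-box, 7.91% (7.56 to 8.27) for MAF, an interval that overlaps that of members, and 1.66% for RFX. The reversed MAF word was likewise higher in members, with 0.965%, than 3 kb away, with 0.598%. HNF1 words (GTTAATNAT) had the largest excess over windows 3 kb away among these words, but not over all windows. They were in 2.04% (1.87 to 2.22) of members, 0.802% of windows 3 kb away, 0.698% of other distal WT peaks and 1.07% of all windows, with reversed words in 0.782% of members.

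Not every endocrine motif was raised over both the flanks and all windows. The homeodomain core (TAATTA), read by Pdx1, Nkx6-1 and many others, was in 9.49% (9.14 to 9.86) of members. This was a little above the 8.51% (8.255 to 8.76) of windows 3 kb away and below the 10.5% of all windows. NKX2 words (TTAAGTG or TCAAGTG) had 8.27%, 7.90% and 8.29%. Both stood above their reversed words, which were in 8.503% and 6.59% of members. In windows 3 kb away the reversed words were in 8.57% and 7.17%. In other distal WT peaks the homeodomain word was in 4.76% and its reversed word in 4.24%, so that there members held both about 2 times as often, and NKX2 words were in 7.10%. These words are short and common, and a lack of excess says nothing about binding.

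**Figure D4:**
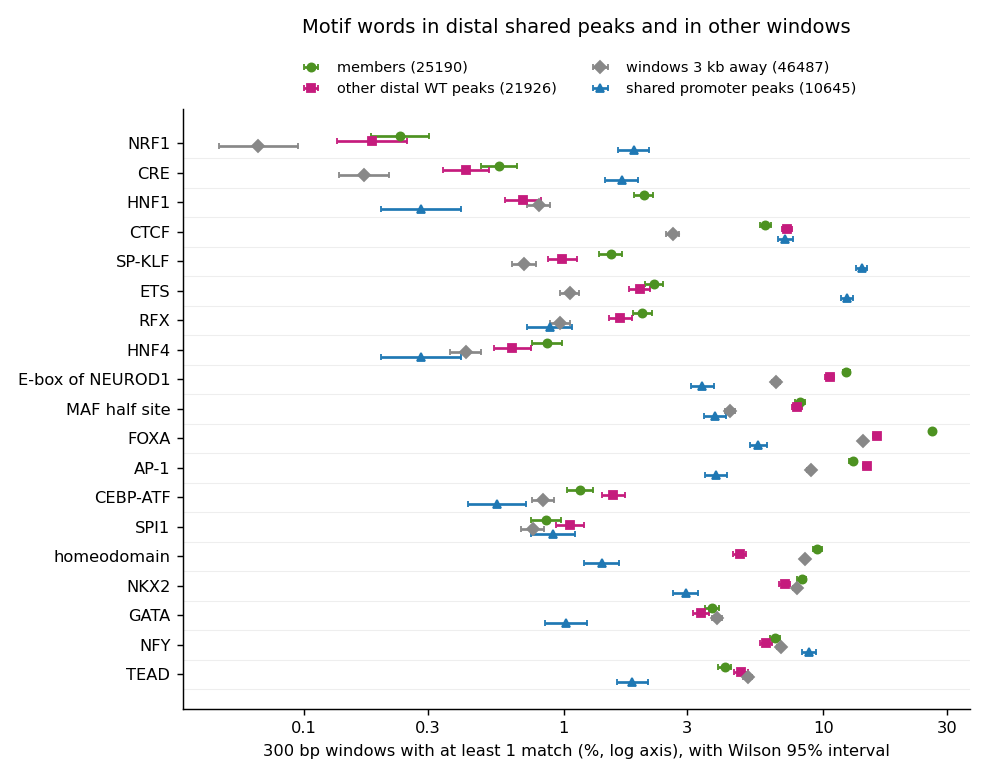
Share of 300 bp windows with at least 1 match to the words of each motif (log axis), with Wilson 95% intervals, for members, other distal WT peaks, windows 3 kb away from members and promoter peaks shared by all 3 lists. FOXA words stand at 26.3% in members and 14.2% in windows 3 kb away, TEAD words at 4.18% and 5.12%, and SP-KLF words at 1.52% in members and 14.1% in promoter peaks.

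Among words of factors that most cells share, those of SP-KLF, ETS and NRF1 were far more frequent in shared promoter peaks than in members. CTCF words differed little, with 7.16% (6.68 to 7.66) in shared promoter peaks, and AP-1 words were rarer there, with 3.87%. The CTCF words (CNAGGGGGC, CNAGGTGGC or CNAGATGGC) were in 5.98% (5.70 to 6.28) of members, 2.63% of windows 3 kb away and 2.47% of all windows. In other distal WT peaks as a whole they were in 7.25% (6.91 to 7.598). Reversed CTCF words were in 0.858% of members and 0.370% of windows 3 kb away. The excess over these flanks was thus not limited to the CTCF order of letters. AP-1 words (TGANTCA) were in 13.0% (12.6 to 13.4) of members, 8.95% of windows 3 kb away and 8.87% of all windows, and again more often in other distal peaks, with 14.7% (14.2 to 15.2). Of these other distal peaks, those seen in neither Taf4 KO list held CTCF words in 4.56% (4.19 to 4.97), below members, and AP-1 words in 14.9% (14.2 to 15.6), above them. The SP-KLF word (GGGGCGGGG) was in 1.52% of members and 0.534% of all windows against 14.1% of shared promoter peaks, and ETS words (CCGGAAG) in 2.23%, 0.867% and 12.4%. NRF1 words (GCGCATGCG), rich in CpG, were in 0.234% of members, 0.0462% of all windows and 1.86% of shared promoter peaks. The SP-KLF, ETS and NRF1 words are rich in G and C, as are promoter peaks with a median GC content of 65.7%. The part of base composition in these differences was not tested. TEAD words (CATTCCA) were lower in members, at 4.18%, than in windows 3 kb away, at 5.12%, or all windows, at 4.90%. GATA words (AGATAAG) had 3.72%, 3.90% and 4.40%.

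Of the remaining words, HNF4 and CRE were rare but raised. HNF4 (CAAAGTCCA) was in 0.862% of members, 0.420% of windows 3 kb away and 0.390% of all windows, and CRE (TGACGTCA) in 0.564%, 0.170% and 0.168%. The CRE word holds a CpG, for which reversed words are no control. CEBP-ATF words (TTGCGCAA or TTGCATCA) had 1.16%, 0.835% and 0.958%, the SPI1 word of myeloid and B cells (GAGGAAGTG) 0.854%, 0.759% and 0.619%, and NFY words (CCAATCA or CCAATGA) 6.53%, 6.85% and 7.34%.

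**Figure D5:**
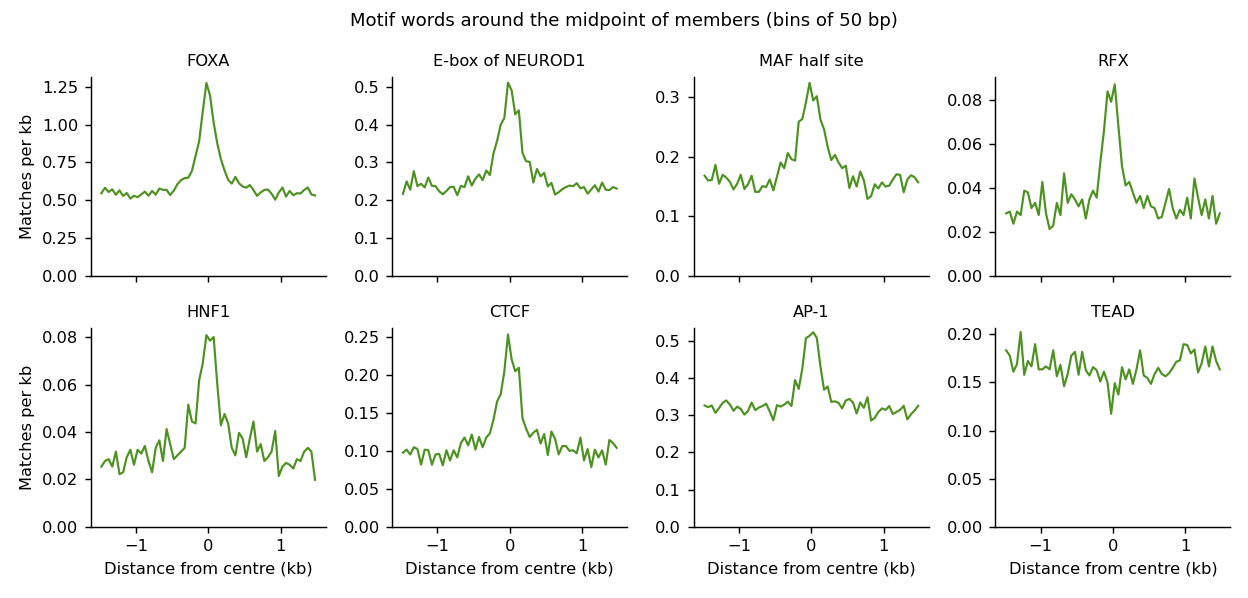
Matches per kb to the words of 8 motifs in bins of 50 bp, by distance from the midpoint of the WT peak of members, in kb. FOXA rises from 0.550 per kb at the edges to 1.14 within 100 bp of the centre, HNF1 from 0.0274 to 0.0772 and CTCF from 0.0968 to 0.221, while TEAD falls from 0.175 to 0.139.

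At the 330 members near beta cell genes the shares were much like those of all members. FOXA words were in 31.2% (26.5 to 36.4), the E-box word in 14.2% (10.9 to 18.4) and the MAF word in 9.09% (6.44 to 12.7). AP-1 words had 10.3% (7.47 to 14.1) and CTCF words 3.94% (2.32 to 6.62). The intervals reach to within that of all members for each of these words, so no difference could be told at this number.

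The threshold of the rule touched few members. In 108 members the overlap with a Taf4 KO peak was under 50 bp, and their median WT percentile was 16.9. Just outside, 46 distal WT peaks lay within 50 bp of a peak of both lists without touching both, with a median percentile of 9.85. The median member was covered over 83.1% of its width in the list that covered it less, and 5325 members (21.1%) lay wholly inside peaks of both lists. Members within 50 bp of a promoter window numbered 80. With a reciprocal overlap of 50% 15384 members were left, with a minimum -log10 q of 3 in every list 15545, and with a minimum of 5 8490, so that their number depends on the rule. With the last of these the density of the 4 beta cell lists was 2.75 to 4.80 times that over all genes.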

How the data were processed

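ATAC-seq peak lists were analysed for 3 libraries of islet cells: WT, Taf4 KO 1 week and Taf4 KO 5 weeks. The submitters' processing notes name bcl2fastq 2.17.1.14, Bowtie 1.0.0 and MACS2 2.1.1. According to the methods, reads were mapped to mm9 with only unique placements kept, and broad peaks were called per library. A control library, duplicate removal and a shift of reads to the insertion site are not given in the sources used here. The deposited lists hold for each peak its position, a whole-number score, a ratio, which is the fold over local background, and a -log10 p and -log10 q, all from the authors' caller and relative to the same library only. The deposited score is 10 times the -log10 q without its decimals and was not used. No read counts per peak were used, so values were not compared between libraries as amounts. Total read numbers are unknown, and background depth was estimated from the lists.

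Peaks on chromosomes 1 to 19 were classed with the GENCODE vM1 annotation and the mm9 genome, and X, Y and M were left out of the members. The percentile rank of a peak was taken by -log10 q within its list, and where a member touched several peaks of a list the strongest was used. The members and gene lists were chosen with earlier results of these data known. Named are Taf4a, the 15 genes with the most members, the 10 strongest members by either of 2 rules, the 5 largest shifts in rank each way, the genes of endocrine lists, and up to 4 genes with most and 4 with no members of each other list. Calculations used Python 3.11.15, numpy 2.4.6, pandas 2.3.3, scipy 1.17.1 and matplotlib 3.10.9, and were tested on simulated peaks with known overlaps. The alternatives tried were other overlaps, thresholds, list lengths, promoter windows, gene assignment, GC spans and motif windows. Clusters, repeated words and reversed words were added after seeing the data. Some genes and sequences covered by these rules are not reported here.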

Additional observations from a re-analysis of the deposited data

Results flagged for a closer look

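Signal outside the autosomes stood apart in both Taf4 KO lists. The 1 week list held 12225 peaks on chromosome X, 8.13% of its peaks, against 1272 (2.09%) in WT and 1451 (0.956%) at 5 weeks. The 5 week list held 44 peaks on chromosome Y, where WT and 1 week held 0. No member lies on either chromosome. The number and sex of the mice in each library are not given in the sources used here, and the part of these differences in the results on autosomes was not tested.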

How the results depend on the processing

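No paired analysis was possible because each group had 1 library, and for the same reason no library could be left out. The number of members was 15384 with a reciprocal overlap of 50%, 15545 with a minimum -log10 q of 3 in every list and 8490 with a minimum of 5. In the same order the median WT rank was 65.0, 69.8 and 78.9 and the median width 549, 573 and 626 bp. The median distance was 32.5 kb with the reciprocal overlap. The share in introns was 47.2% and 45.4% with the 2 thresholds, and with the stricter one 4969 genes had a member. Lists of equal length gave a median width of 536 bp and a median rank of 62.5. With a promoter window from 2000 bp before to 500 bp after the start the median distance was 34.9 kb, and with a window at every annotated start it was 34.4 kb and the median width 514 bp. With GC content over 100 kb the share of members ran from 69.2% to 39.2%. In windows of 500 bp the share with FOXA words was 36.3% in members and 22.5% at 3 kb. Weaker regions depend on depth, so absence from a list does not show closed chromatin.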
